A study of Homo sapiens with 8 samples.

Results

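The cytosolic ribosomal protein genes code for the proteins of the ribosome that works in the cytoplasm. They were taken as the protein-coding genes with an RPL, RPS, RPLP or RPSA symbol, without pseudogenes and without genes on chromosome Y, which gave 85 members among the 64252 genes of the series. Of these, 53 belong to the large and 32 to the small subunit, and 8 are paralogs of another member. RNA came from 2 cell lines of human T-cell leukemia (T-ALL), 6T-CEM (derived from CCRF-CEM) and J.gamma1 (derived from Jurkat). Each line carried a lentiviral control shRNA (sh-NC, labelled shControl) or an shRNA against LDB1 (sh-LDB1, labelled shLDB1), with 2 libraries in each of the 4 groups, and the paper's methods describe puromycin selection of infected cells in general. LDB1 is a protein without DNA binding of its own that links transcription factors and brings enhancers to promoters. The shRNA of the sequenced cells was not named, and no source used here says that the 2 libraries of a group came from separate transductions, so p-values measure the spread between these libraries, which may be technical.

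In the ribosome, the large subunit (proteins named RPL and RPLP) joins amino acids into a chain, and the small subunit (RPS and RPSA) reads the messenger RNA. Transcripts of these genes are among the most abundant in dividing cells and usually begin with a C followed by a run of pyrimidines, the 5′ terminal oligopyrimidine (TOP) motif, through which mTOR signalling sets how well they are translated. In T-ALL, RPL5, RPL10, RPL11 and RPL22 are known as recurrently mutated or deleted genes, and a few members have a paralog, a further gene for a closely related protein.

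LDB1, the targeted gene, had normalized levels of 106.9 and 111.2 CPM (counts scaled to library size with TMM factors) in 6T-CEM sh-NC against 36.98 and 34.98 CPM in 6T-CEM sh-LDB1. Its levels in J.gamma1 were 60.15 and 58.79 CPM for sh-NC against 33.2 and 30.76 CPM for sh-LDB1. LDB1 fell by 1.60 on the log2 scale in 6T-CEM and by 0.89 in J.gamma1, and this difference between the lines passed the test (edgeR, adjusted p = 0.000237). Library totals lay between 26160492 and 30604977 counts. Of 8 T-lineage markers, 7 in 6T-CEM and 8 in J.gamma1 were over 1 CPM in every library, CD2 being the exception. Of the markers of other cell types, 3 erythroid ones summed to between 0 and 0.173 CPM in 6T-CEM and 0.382 and 0.657 CPM in J.gamma1, with HBB at 0, and 5 myeloid ones to between 1.20 and 2.77 CPM (6T-CEM) and 0.394 and 0.956 CPM (J.gamma1). The 5 B-lineage markers summed to between 32.0 and 44.6 CPM (6T-CEM) and 72.7 and 84.8 CPM (J.gamma1), with MS4A1 at 0.107 CPM or less. Most of that sum was CD79A, at 22.06 and 21.65 CPM in 6T-CEM sh-NC, 35.86 and 39.25 in 6T-CEM sh-LDB1, 68.14 and 68.78 in J.gamma1 sh-NC and 80.89 and 79.57 in J.gamma1 sh-LDB1. CD79A was higher in sh-LDB1 in both lines, and its part in the results was not tested. In bulk RNA, a change within cells and a change in the mix of cells cannot be told apart, and the scaling makes every level relative to the rest of the library.

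The start sites were searched for the pyrimidine run of the TOP motif. RefSeq promoters (GRCh38.p14, 250 bases before to 50 after each start) were matched for 68 of the 85 genes. A run of at least 6 C or T that touched the 10 bases on either side of a start was present in 59 of the 68 (86.8%) and in 36.8% of 15842 protein-coding genes, counting a gene with any of its listed starts. Such a run need not begin at the start, and some lay before it, so it is wider than the motif. A C as the first base stood in 51 of the 68 (75%) and in 15% of all protein-coding genes. Of 6 paralogs with an entry, 3 had such a run. The windows below span the 15 bases before and the 15 after the start, 5′ to 3′ on the gene's strand. Capitals mark the longest pyrimidine run that touched the 10 bases on either side of the start (the first of them where runs are of equal length). The first pair rose in both lines after LDB1 knockdown, the next 3 fell in both, and the last pair is a parent and a paralog whose share differed most between the lines.
RPSA (chr3:39406705-39406734, plus strand): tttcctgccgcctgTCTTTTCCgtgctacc
RPLP0 (chr12:120201097-120201126, minus strand): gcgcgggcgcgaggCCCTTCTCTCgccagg
RPL36AL (chr14:49620612-49620641, minus strand): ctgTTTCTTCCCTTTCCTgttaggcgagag
RPL41 (chr12:56116618-56116647, plus strand): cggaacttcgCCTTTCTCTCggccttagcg
RPS4X (chrX:72277234-72277263, minus strand): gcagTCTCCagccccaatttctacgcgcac
RPL22 (chr1:6199581-6199610, minus strand): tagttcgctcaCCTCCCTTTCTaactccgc
RPL22L1 (chr3:170870181-170870210, minus strand): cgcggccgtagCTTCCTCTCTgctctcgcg
The pyrimidine run was present in members that rose and in members that fell, and RPS4X had 2 runs of 5 bases, below the minimum of 6. No RefSeq entry was matched for RPL39L.

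Other promoter motifs, searched on both strands over the 300 bases, were less common. The ETS core CCGGAAG stood in 24 of the 68 genes (35.3%) and in 16.5% of all protein-coding genes, and the YY1 core AAGATGGC in 7 (10.3%) and 4.66%. The E-box CACGTG stood in 5 (7.35%) and 10.9%, and TATAAA in 7 (10.3%) and 12.4%.

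Members took a large and similar part of every library. They held 7.58% and 7.24% of the counts in 6T-CEM sh-NC and 7.36% and 7.56% in 6T-CEM sh-LDB1, so that the groups overlapped. In J.gamma1 they held 6.42% and 6.83% in sh-NC and 7.09% and 7.33% in sh-LDB1, without overlap. With 2 libraries against 2, an exact permutation test of such a value cannot go below p = 0.333. The large subunit took 61.71% and 61.74% of the members' counts in 6T-CEM sh-NC and 61.6% and 61.74% in 6T-CEM sh-LDB1, with overlap. In J.gamma1 it took 60.7% and 60.36% in sh-NC and 61.23% and 61.17% in sh-LDB1, higher in both sh-LDB1 libraries.

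Per transcript length, computed from the counts as TPM (level per transcript length, scaled to the library) with 1 representative transcript a gene, members covered a wide range. Between 56 and 58 of the 85 exceeded 1000 TPM in each group, and 5 were under 100 TPM. In 6T-CEM sh-NC, RPL41, the shortest protein of the large subunit, was highest at 5024 ± 137 TPM (SD, n = 2), followed by RPS2, RPS3A, RPS27 and RPS24. RPS2 at 4861 ± 137, RPS3A at 4841 ± 635 and RPS27 at 4698 ± 185 TPM came next, and RPS24 followed at 4503 ± 149 TPM. Each of these 5 overlapped its neighbour in the order within 1 SD. In J.gamma1 sh-NC, RPS3A led at 6039 ± 445 TPM, above RPS27 at 5004 ± 361, RPL19 at 4247 ± 80 and RPS2 at 3855 ± 47.2 TPM, and these 4 did not overlap each other within 1 SD. After LDB1 knockdown, RPLP0 (5104 ± 114 TPM) and RPS2 (5063 ± 10.7 TPM) were highest in 6T-CEM, within 1 SD of each other, and RPS3A was highest in J.gamma1. The low end was made of paralogs in each group, with RPL22L1 at 78 ± 0.22, RPL39L at 57.7 ± 8.35 and RPS27L at 15.9 ± 0.28 TPM in 6T-CEM sh-NC. RPL10L had 0 counts in every library and RPL3L at most 9, and neither was tested, which left 83 members. The order depended on the gene model, since RPS24 moved from rank 5 to rank 61 in 6T-CEM sh-NC with the length of all exons.

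The first comparison asked how members changed after LDB1 knockdown in 6T-CEM. Of 83 tested, 3 rose, 11 fell and 69 were not called at an adjusted p under 0.05 (edgeR's quasi-likelihood test, Benjamini-Hochberg over 16059 genes). Among all genes tested, 15.1% rose and 16.2% fell (31.3% in either direction), so the members called were below that background for rises (3.61%) and near it for falls (13.3%). The median log2 fold change of the members was -0.04, against 0.00 for all genes tested. Both sh-LDB1 libraries were above both sh-NC libraries for 8 members (32.1% of all genes tested) and below for 42 (33.2% of all genes tested). No member passed with a log2 fold change beyond 1, against 2.74% of all genes for rises and 2.39% for falls. The widest change in size among members not called was that of RPS9, with 94.62 and 72.11 CPM in sh-NC and 117.6 and 101.6 CPM in sh-LDB1 (adjusted p = 0.165). Fewer members were called in each fit without 1 library. With 1 sh-NC library left out, the median was -0.03 (without replicate 1) and -0.06 (without replicate 2), against 0.01 for all genes in each. Without sh-LDB1 replicate 1 the median was -0.02, and without sh-LDB1 replicate 2 it was -0.07. Scaled by library totals alone the calls were 5 higher and 8 lower, and with the upper quartile 5 higher and 9 lower. With these scalings the median of the members was -0.0042 and -0.0131, and that of all genes 0.0426 and 0.0328. The shares of all genes called under these alternatives are not given here.

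In J.gamma1 the members moved mostly upward. Of 83 tested, 35 rose, 8 fell and 40 were not called, while 25.0% of all 17215 genes tested rose and 26.5% fell (51.5% in either direction). The share of members that rose (42.2%) was above that background and the share that fell (9.64%) below it. With a log2 fold change beyond 1, RPL39L alone passed, against 6.67% of all genes for rises and 7.19% for falls. The median log2 fold change was 0.12, against 0.00 for all genes. Both sh-LDB1 libraries were above both sh-NC libraries for 47 members (37.3% of all genes tested) and below for 8 (38.6% of all genes tested). Members also differed between libraries of 1 group. Their median log2 difference between replicate 2 and replicate 1 was 0.10 in J.gamma1 sh-NC and 0.08 in J.gamma1 sh-LDB1, close to the median change between the groups, and -0.04 and 0.05 in the 2 groups of 6T-CEM. Without J.gamma1 sh-NC replicate 1 fewer members were called and the median was 0.07, against 0.01 for all genes. Without sh-LDB1 replicate 2 fewer were called as well, and the median was 0.09, against -0.01 for all genes. The shares of all genes called in these fits are not given here. After the trend of fold changes with transcript length and GC content was subtracted, the median in J.gamma1 was 0.04.

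Of the 83 members, 8 were called in both lines, against 23.0% of the 14902 genes tested in both, 32 rose in J.gamma1 without a call in 6T-CEM (15.8% of those genes) and 34 had no call in either (36.7%). Of the 8, 2 rose in both lines (9.11% of all genes tested in both), 5 fell in both (10.5%) and 1 was called in opposite directions (3.34%). RPLP0 and RPSA rose in both, RPL36A, RPL36AL, RPL39L, RPL41 and RPS4X fell in both, and RPL7L1 fell in 6T-CEM and rose in J.gamma1. Of these 8, RPL36AL was the one that kept its call in both lines whichever single library was left out.

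**Figure D1:**
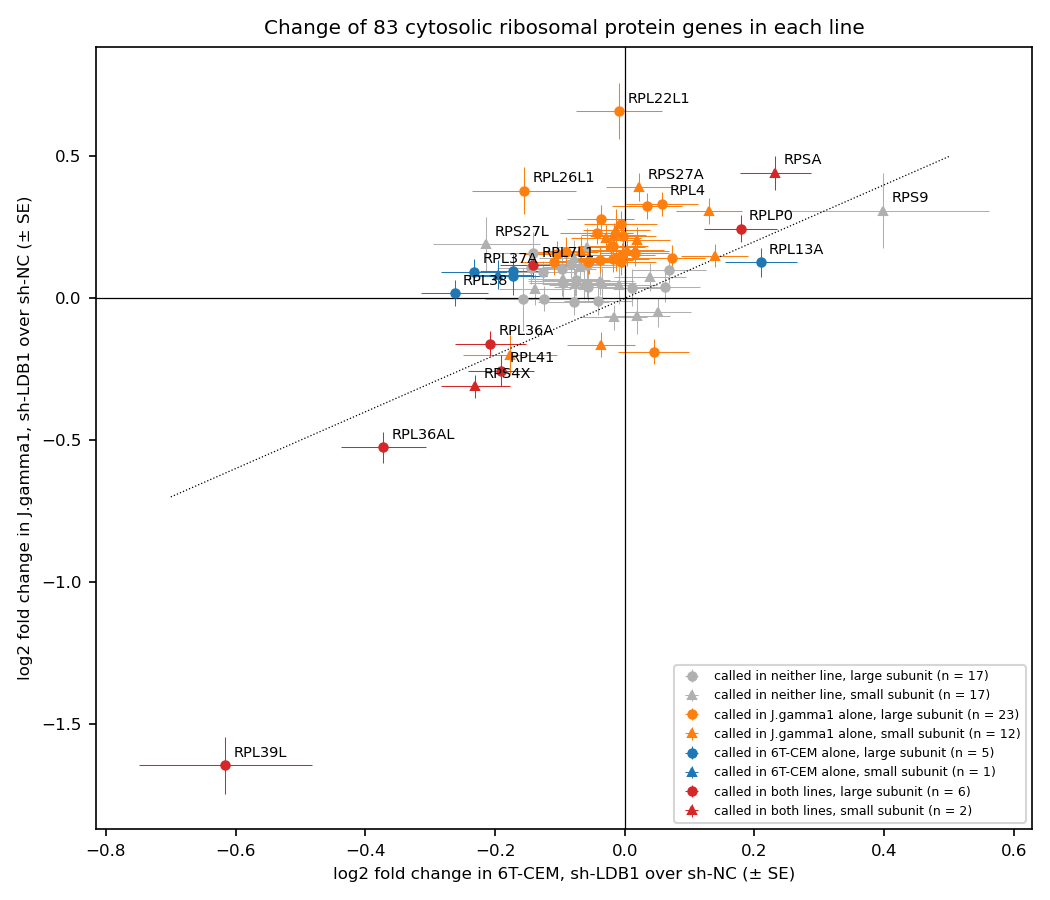
Log2 fold change (sh-LDB1 over sh-NC, ± SE) of each of the 83 tested members in 6T-CEM on the x axis and J.gamma1 on the y axis. Colours mark the lines in which a member was called, circles the large and triangles the small subunit, and the dotted line equal change. RPL39L lies at -0.62 and -1.65, and most other members lie within 0.5 of 0 on both axes.

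RPSA, which also codes for a laminin receptor at the cell surface, rose in both lines. Its levels in 6T-CEM were 1729 and 1688 CPM in sh-NC and 1933 and 2068 CPM in sh-LDB1, and in J.gamma1 1163 and 1307 against 1607 and 1736 CPM. The groups did not overlap in either line. The log2 fold change was 0.23 ± 0.05 (SE) in 6T-CEM (adjusted p = 0.00478) and 0.44 ± 0.06 in J.gamma1 (adjusted p = 0.000249), and the difference between the lines did not pass the test (adjusted p = 0.0992). RPSA has 73 pseudogenes in the annotation, whose counts reached 17.8% of those of parent and pseudogenes together in the library where they were highest. The call in 6T-CEM was lost without sh-NC replicate 2.

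The stalk proteins RPLP0, RPLP1 and RPLP2 recruit the factors that drive elongation. RPLP0 stood at 2568 and 2419 CPM in 6T-CEM sh-NC and at 2727 and 2903 in sh-LDB1, a rise of 0.18 ± 0.06 on the log2 scale (adjusted p = 0.0252). In J.gamma1 it went from 1460 and 1578 to 1739 and 1848 CPM, a rise of 0.25 ± 0.05 (adjusted p = 0.00145). The groups did not overlap in either line, and the call in 6T-CEM was lost without any 1 of sh-NC replicate 1, sh-NC replicate 2 and sh-LDB1 replicate 2. RPLP1 was at 463.4 and 465.4 CPM in J.gamma1 sh-NC and 494.4 and 527 in sh-LDB1, and RPLP2 at 470.4 and 457.5 against 493 and 522.8 CPM. Both rose there by 0.14 on the log2 scale (adjusted p = 0.0211 and 0.0276) and were not called in 6T-CEM. In 6T-CEM RPLP1 was at 944.9 and 916.3 CPM in sh-NC and 958.3 and 992.8 in sh-LDB1, without overlap. RPLP2 was at 597.9 and 594 against 568.4 and 588.9 CPM there. The difference between the lines did not pass the test for RPLP1 or RPLP2 (adjusted p = 0.484 and 0.063). Their calls were lost without sh-NC replicate 2 and without sh-LDB1 replicate 2, that of RPLP1 also without sh-NC replicate 1.

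RPL5 and RPL11 join the 5S ribosomal RNA in a particle that can also bind MDM2. RPL5 was at 1415 and 1397 CPM in 6T-CEM sh-NC against 1328 and 1370 in sh-LDB1, and at 990 and 1025 against 1075 and 1120 CPM in J.gamma1. RPL5 rose in J.gamma1 (log2 0.13 ± 0.04, adjusted p = 0.0238) and was not called in 6T-CEM, where the groups did not overlap either (log2 -0.06, adjusted p = 0.454). RPL11 was at 1202 and 1252 CPM in 6T-CEM sh-NC and 1162 and 1262 in sh-LDB1, and at 1040 and 1124 against 1166 and 1210 CPM in J.gamma1. It rose in J.gamma1 (log2 0.14 ± 0.05, adjusted p = 0.0255), and its groups overlapped in 6T-CEM (log2 -0.01 ± 0.06, adjusted p = 0.887). Both calls in J.gamma1 were lost without sh-NC replicate 1 and without sh-LDB1 replicate 2, and that of RPL11 also without sh-LDB1 replicate 1.

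RPL10, which completes the large subunit in its last steps of maturation, did not pass the test in either line. It was at 1031 and 980.9 CPM in 6T-CEM sh-NC and at 959.3 and 990.3 in sh-LDB1, and in J.gamma1 at 1050 and 1106 against 1020 and 1112 CPM. The groups overlapped in both lines, and the log2 differences were -0.04 ± 0.05 and -0.01 ± 0.05. Rows of pseudogenes named after RPL10 held between 10.6% and 29.7% of the counts of parent and pseudogenes together.

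Other large-subunit members were called in 1 line. RPL4, part of the peptide exit tunnel, was at 2207 and 2122 CPM in 6T-CEM sh-NC and 2169 and 2321 in sh-LDB1, and at 1244 and 1313 against 1582 and 1628 CPM in J.gamma1. The J.gamma1 groups did not overlap, and the log2 fold change there was 0.33 ± 0.04 (adjusted p = 6.94e-05). RPL38, known for its part in the translation of Hox transcripts, was at 387.6 and 401.7 CPM in 6T-CEM sh-NC and 333 and 323.3 in sh-LDB1, without overlap (log2 -0.26 ± 0.05, adjusted p = 0.00134). In J.gamma1 its groups overlapped, at 329.5 and 348.1 against 334.4 and 348.9 CPM. RPL37A, at 1186 and 1156 CPM in sh-NC and 990.2 and 997.6 in sh-LDB1, fell in 6T-CEM as well (log2 -0.23 ± 0.05, adjusted p = 0.00277). RPL13A, which also takes part in a complex that silences inflammatory transcripts, rose there from 2172 and 2042 to 2362 and 2497 CPM (log2 0.21 ± 0.06, adjusted p = 0.01). Neither passed the test in J.gamma1, and the call of RPL13A was lost without sh-NC replicate 2 and without sh-LDB1 replicate 2. Both J.gamma1 sh-LDB1 libraries of RPL13A were still above both sh-NC libraries (log2 0.13, adjusted p = 0.0658). Its difference between the lines did not pass the test (log2 -0.09, adjusted p = 0.50). RPL3, which shapes the catalytic centre, fell in J.gamma1 from 1666 and 1744 to 1452 and 1530 CPM (log2 -0.19 ± 0.04, adjusted p = 0.00391), a call lost without sh-LDB1 replicate 1.

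RPL41 and RPS4X fell in both lines. RPL41 was at 1765 and 1731 CPM in 6T-CEM sh-NC and 1517 and 1538 in sh-LDB1, and at 959.6 and 1064 against 818.1 and 871.3 CPM in J.gamma1. The groups did not overlap in either line, and the log2 fold changes were -0.19 ± 0.05 (adjusted p = 0.0104) and -0.25 ± 0.05 (adjusted p = 0.00258). RPS4X, an X-linked protein of the small subunit, was at 2088 and 2002 CPM in 6T-CEM sh-NC and 1710 and 1766 in sh-LDB1. In J.gamma1 it was at 1292 and 1340 against 1055 and 1059 CPM. Its groups did not overlap, and the log2 fold changes were -0.23 ± 0.05 (adjusted p = 0.00389) and -0.31 ± 0.04 (adjusted p = 8.13e-05). In 6T-CEM both calls were lost without sh-NC replicate 1, and that of RPL41 also without sh-NC replicate 2 and without sh-LDB1 replicate 1.

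RPS27A codes for a fusion of ubiquitin with a small-subunit protein. Its levels in 6T-CEM overlapped, at 777.7 and 768.3 CPM in sh-NC and 765.5 and 800.1 in sh-LDB1. In J.gamma1 they were 464.7 and 508.2 against 625.3 and 646 CPM, without overlap and with a rise of log2 0.39 ± 0.05 (adjusted p = 6.69e-05). RPS3A, also of the small subunit, fell in J.gamma1 from 2186 and 2533 to 1983 and 2113 CPM (log2 -0.20 ± 0.07, adjusted p = 0.0444), without overlap. The call of RPS3A was lost in 10 of 13 alternatives, among them each other scaling, each other filter on low counts, DESeq2 and the fit to all 8 libraries, and its adjusted p ranged from 0.000224 (without sh-NC replicate 1) to 0.241 (without sh-LDB1 replicate 1).

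The subunits were compared by their medians. In 6T-CEM, 2 of 51 large-subunit members rose and 9 fell (median log2 -0.06), and 1 of 32 small-subunit members rose and 2 fell (median -0.03). These were 3.92% and 17.65% of the large and 3.125% and 6.25% of the small subunit, against 15.1% and 16.2% of all genes tested. In J.gamma1, 24 large-subunit members rose and 5 fell (median 0.12), and 11 small-subunit members rose and 3 fell (median 0.10). There the shares were 47.1% and 9.80% of the large and 34.4% and 9.375% of the small subunit, against 25.0% and 26.5% of all genes tested. Without the paralogs, 4.35% of 46 large-subunit members rose and 13.0% fell in 6T-CEM (median -0.06). For 31 small-subunit members the shares were 3.23% and 6.45% (median -0.03). In J.gamma1 they were 45.65% and 6.52% of the large (median 0.12) and 35.5% and 9.68% of the small subunit (median 0.08). With the paralogs kept, the medians differed (large minus small) by -0.02 in 6T-CEM and by 0.02 in J.gamma1 on the log2 scale. The same difference taken in each library, relative to the sh-NC mean of the line, was 0.00208 and -0.00208 in 6T-CEM sh-NC and -0.0257 and -0.0227 in 6T-CEM sh-LDB1. For J.gamma1 it was 0.00168 and -0.00168 in sh-NC and 0.0345 and 0.0151 in sh-LDB1. The groups did not overlap in either line, and the sign of the difference was opposite in the lines. The sh-NC values of a line mirror each other because they are taken against their own mean, so this is a description and not a test. Without J.gamma1 sh-NC replicate 2 the difference in that line was 0.0042.

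**Figure D2:**
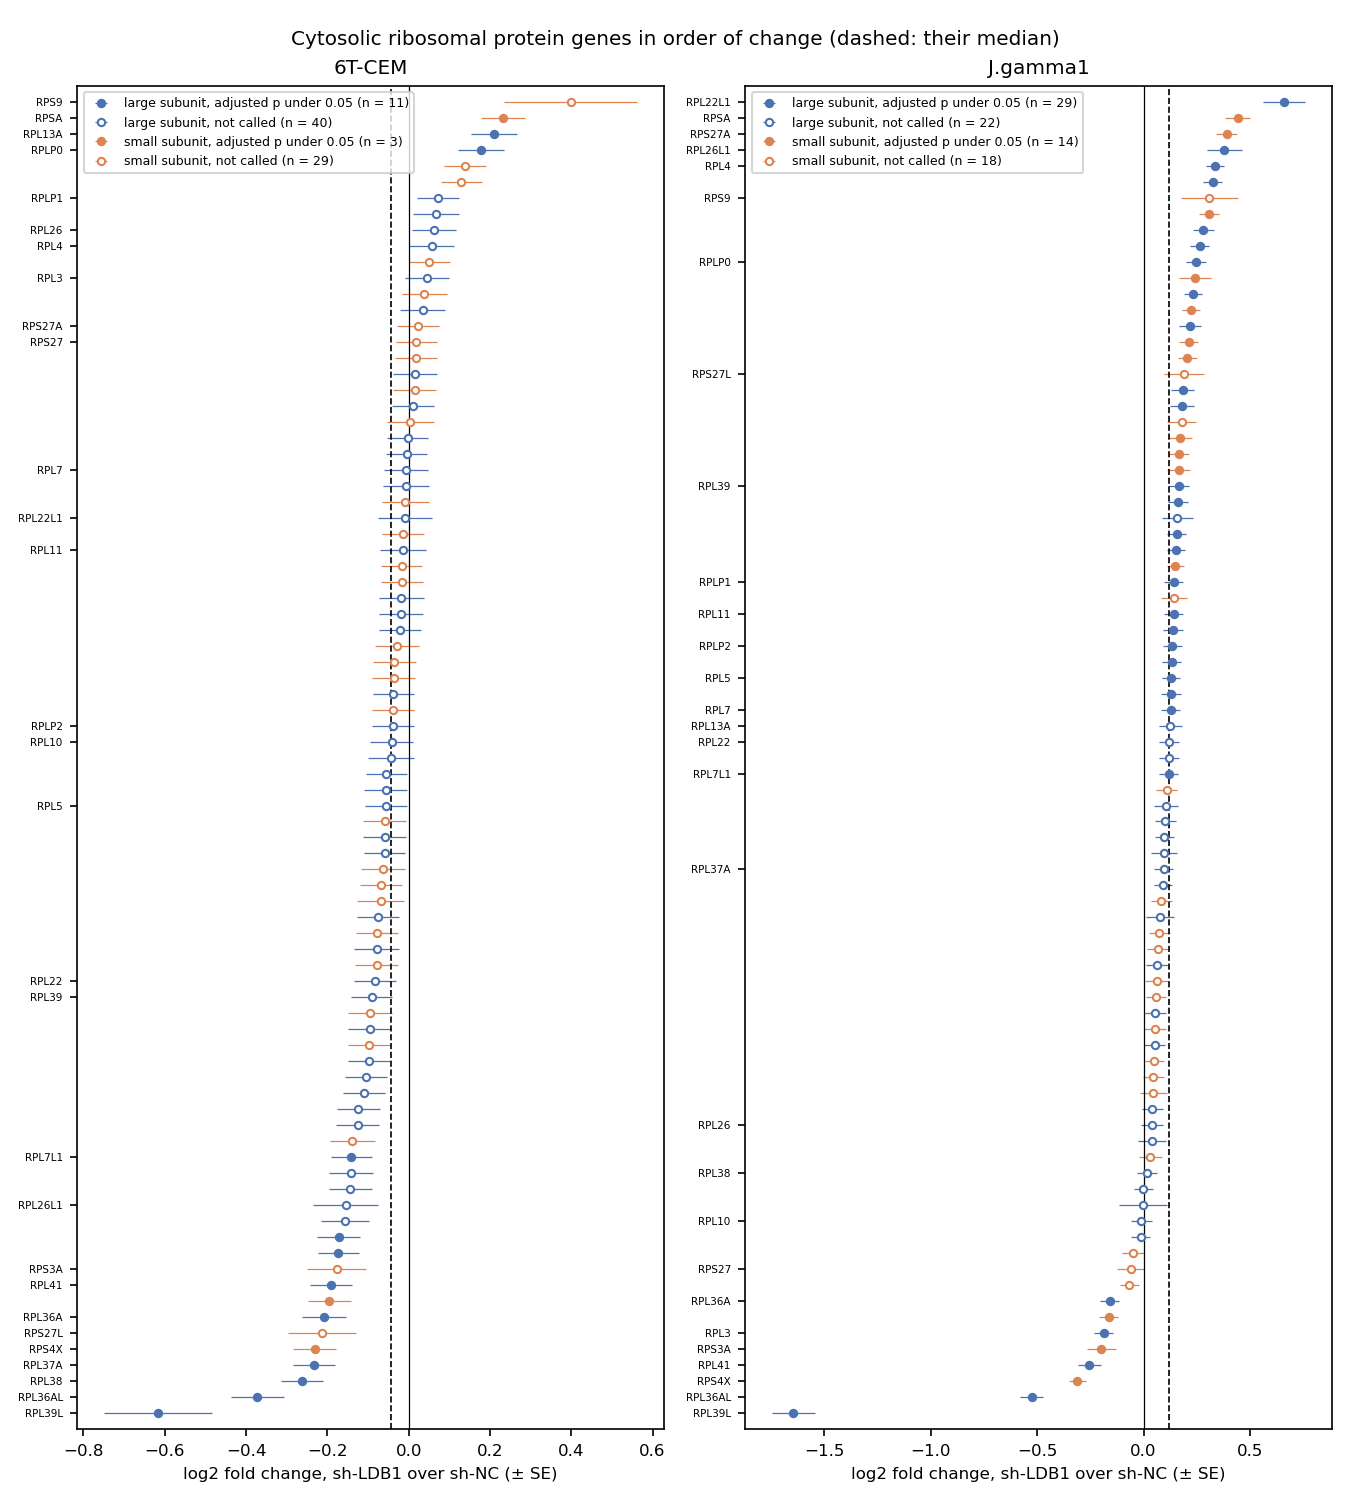
The 83 tested members in order of their log2 fold change (sh-LDB1 over sh-NC, ± SE) in each line, blue for the large and orange for the small subunit, filled where the adjusted p is under 0.05, with names for members described in the text. The dashed line is the median of the members, -0.04 (6T-CEM) and 0.12 (J.gamma1). Large- and small-subunit members are mixed along the order.

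Calls were also counted by the ETS core in the promoter. In J.gamma1, 5 of 24 members with the core rose and 3 fell (median log2 0.06), and 22 of 43 without it rose and 3 fell (median 0.14), against 25.0% and 26.5% of all genes tested. In 6T-CEM, 1 of the 24 rose and 3 fell (median -0.06), and 2 of the 43 rose and 7 fell (median -0.03), against 15.1% and 16.2%. Splits by other features differed in J.gamma1 as well. With the YY1 core 5 of 7 rose and 0 fell, and without it 22 of 60 rose and 6 fell. With the E-box 4 of 5 rose and 0 fell, and without it 23 of 62 rose and 6 fell. With TATAAA 3 of 6 rose and 1 fell, and without it 24 of 61 rose and 5 fell. With the pyrimidine run 24 of 59 rose and 4 fell, and without it 3 of 8 rose and 2 fell. All these splits are descriptions and were not tested.

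Paralogs were set against their parents within each library, which leaves out the scaling between libraries. The largest movement was that of RPL39L, a paralog of RPL39 best known from testis, on chromosome 3 from 187120948 to 187180908 (hg38, minus strand). RPL39L was at 19.25 and 24.09 CPM in 6T-CEM sh-NC and 13.65 and 14.55 in sh-LDB1, and at 41.31 and 48.45 against 13.62 and 14.94 CPM in J.gamma1. It fell to 65.1% and 31.8% of the sh-NC mean, with log2 fold changes of -0.62 ± 0.13 (adjusted p = 0.0026) and -1.65 ± 0.10 (adjusted p = 3.36e-07). Groups did not overlap, and the 4 sh-LDB1 libraries of both lines lay within a narrow range while the sh-NC libraries differed between the lines. Shares of a pair were taken from TPM, so they are per transcript length and not shares of counts. RPL39L held 2.53% ± 0.40 (SD, n = 2) of the TPM of the pair in 6T-CEM sh-NC and 1.77% ± 0.11 in 6T-CEM sh-LDB1. In J.gamma1 it held 5.78% ± 0.51 in sh-NC and 1.72% in sh-LDB1. The parent RPL39 was at 448.4 and 446.1 CPM in 6T-CEM sh-NC and 424.9 and 412.5 in sh-LDB1, a change that did not pass the test (adjusted p = 0.193). In J.gamma1 RPL39 rose from 386.1 and 396.2 to 415.6 and 457.7 CPM (log2 0.16 ± 0.05, adjusted p = 0.0197). In 6T-CEM the call of RPL39L was lost without sh-NC replicate 2, and in J.gamma1 the call of RPL39 was lost without sh-NC replicate 1 and without sh-LDB1 replicate 2.

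RPL22L1 (chromosome 3 from 170864875 to 170870208, hg38, minus strand) is the paralog of RPL22, an RNA-binding protein needed in T-cell development. RPL22L1 was at 75.49 and 77.24 CPM in 6T-CEM sh-NC and 76.98 and 74.46 in sh-LDB1, with overlapping groups. In J.gamma1 it was at 19.51 and 18.14 CPM in sh-NC and 27.41 and 31.85 in sh-LDB1, 157% of the sh-NC mean (log2 0.66 ± 0.10, adjusted p = 0.000256). RPL22 itself was at 410.8 and 398.6 against 374.4 and 387.4 CPM in 6T-CEM and at 533.6 and 571 against 585.7 and 609.4 CPM in J.gamma1. Its groups did not overlap in either line, but neither change passed the test (log2 -0.08, adjusted p = 0.253, and log2 0.12, adjusted p = 0.0512). RPL22L1 made up 17.0% ± 0.53 and 17.7% ± 0.70 of the pair in 6T-CEM, and 3.57% ± 0.34 and 5.09% ± 0.38 in J.gamma1.

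RPL36AL (chromosome 14 from 49618530 to 49620626, hg38, minus strand) and its parent RPL36A code for nearly the same protein. RPL36AL was at 184.5 and 163.6 CPM in 6T-CEM sh-NC and 132.4 and 135.7 in sh-LDB1, and at 141.2 and 153.1 against 101.5 and 102.2 CPM in J.gamma1. The groups did not overlap, and the log2 fold changes were -0.37 ± 0.07 (adjusted p = 0.000522) and -0.53 ± 0.05 (adjusted p = 1.66e-05). RPL36A also fell, by less, with -0.21 ± 0.05 (adjusted p = 0.00951) and -0.16 ± 0.04 (adjusted p = 0.0109). RPL36AL went from 30.8% ± 0.55 to 28.5% ± 0.59 of the pair after knockdown in 6T-CEM, and in J.gamma1 it went from 32.9% ± 0.66 to 27.6% ± 0.17. Exons of RPL36A overlap GLA on the other strand, and its pseudogenes held up to 21.3% of the counts of parent and pseudogenes. The call of RPL36A was lost without sh-NC replicate 1 and without sh-LDB1 replicate 2 in 6T-CEM, and without sh-NC replicate 2 and without sh-LDB1 replicate 1 in J.gamma1.

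RPL26L1, a paralog of RPL26, was at 53.74 and 48.1 CPM in 6T-CEM sh-NC and 46.28 and 44.91 in sh-LDB1 (log2 -0.16, adjusted p = 0.166), and at 25.49 and 24.45 against 31.27 and 33.44 CPM in J.gamma1 (log2 0.38 ± 0.08, adjusted p = 0.00283). RPL26 stayed between 689.4 and 839.9 CPM in all 8 libraries, with overlapping groups. RPS27L, a paralog of RPS27 known as a p53 target, was not called in either line (log2 -0.21, adjusted p = 0.0642, and log2 0.19, adjusted p = 0.121). RPL7L1, a paralog of RPL7 with a role in ribosome assembly, fell from 349.8 and 349.3 to 317.6 and 314.5 CPM in 6T-CEM (log2 -0.14, adjusted p = 0.0469) and rose from 257.8 and 265.8 to 279.9 and 285.8 CPM in J.gamma1 (log2 0.12, adjusted p = 0.046). Its groups did not overlap in either line, but both calls lay near the threshold. The call of RPL7L1 was lost in all 4 fits without 1 library in each line, and over all 13 alternatives 7 times (6T-CEM) and 6 times (J.gamma1). The parent RPL7 rose in J.gamma1 (log2 0.13, adjusted p = 0.0311), a call lost in 3 of 4 fits without 1 library.

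Whether the change differed between the lines was tested as an interaction in a fit to all 8 libraries. The change was higher in J.gamma1 for 27 of the 83 members and lower for 2, while 12.0% of all 18552 genes tested were higher and 12.4% lower (24.4% in either direction). With a difference beyond 1 on the log2 scale, RPL39L alone passed, against 3.03% of all genes for higher and 2.84% for lower differences. Among those higher in J.gamma1, the largest differences in log2 fold change were those of RPL22L1 (0.67 ± 0.11, adjusted p = 0.00123), RPL26L1 (0.53 ± 0.11, adjusted p = 0.00458), RPS27L (0.40 ± 0.13, adjusted p = 0.0431), RPS27A (0.37 ± 0.07, adjusted p = 0.00221) and RPL37A (0.32 ± 0.06, adjusted p = 0.00189). The 2 members with a lower change in J.gamma1 were RPL39L (-1.03 ± 0.18, adjusted p = 0.00123) and RPL3 (-0.23 ± 0.07, adjusted p = 0.0218). For RPL36AL, RPL41, RPS4X and RPLP0 the difference did not pass the test. Leaving out 1 library changed the number of members called. It was lowest without 6T-CEM sh-NC replicate 1, 6T-CEM sh-LDB1 replicate 1, J.gamma1 sh-NC replicate 1 or J.gamma1 sh-LDB1 replicate 2. The shares of all genes called in these fits are not given here.

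The lines differed before knockdown. Between the sh-NC groups, 7 of 83 members were higher in J.gamma1 and 66 lower, while 34.6% of all genes tested were higher and 31.1% lower (65.7% in either direction). With a log2 difference beyond 1, 1 member was higher and 5 were lower, against 19.1% and 13.3% of all genes. RPL39L (log2 1.05 ± 0.12), RPS6, the phosphorylated target of S6 kinase (0.64 ± 0.05), RPL22 (0.45 ± 0.05) and RPL3 (0.18 ± 0.05) were among those higher in J.gamma1. The members lowest in J.gamma1 were RPL22L1 (-2.02 ± 0.08), RPS28 (-1.73 ± 0.07), RPS27L (-1.04 ± 0.09), RPL26L1 (-1.03 ± 0.08) and RPLP1 (-1.0 ± 0.04). All 9 had an adjusted p of 0.00399 or less. Scaling by library totals alone moved the median of all genes in this comparison from 0.045 to 0.188 and left 11 members higher and 48 lower. The shares of all genes called with that scaling are not given here. Pseudogenes of RPS28 had 182 and 185 counts in 6T-CEM sh-NC and 4224 and 4160 in J.gamma1 sh-NC, and held between 1.95% and 57.5% of the counts of parent and pseudogenes, the highest share being in J.gamma1. With pseudogene counts added, the difference of RPS28 between the sh-NC groups was -0.58 (adjusted p = 1.10e-06). Its exons overlap NDUFA7 on the other strand. RPL10 was not called between the lines (log2 0.10, adjusted p = 0.103), but was lower in J.gamma1 when pseudogene counts were added (log2 -0.23, adjusted p = 0.000993). This comparison and the change within each line share the sh-NC libraries, so their values are not independent. RPL39L had the highest log2 difference (J.gamma1 over 6T-CEM) between the sh-NC groups, and it also fell most in J.gamma1.

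Other genes of translation were taken from lists for comparison. Of 62 ribosome biogenesis genes, which make and assemble the subunits, 4 rose and 16 fell in 6T-CEM (median log2 -0.06). These were 6.45% and 25.8%, against 15.1% and 16.2% of all genes tested, and 32.3% against 31.3% in either direction. In J.gamma1, 54 rose and 4 fell (median 0.65), which were 87.1% and 6.45%, against 25.0% and 26.5% of all genes tested. In J.gamma1, BOP1, a factor of the large subunit, went from 59.93 and 61.14 to 159.4 and 179.4 CPM (log2 1.49 ± 0.06, adjusted p = 2.59e-08), and WDR43, of the small-subunit processome, from 52.5 and 53.72 to 149.7 and 140.7 CPM (log2 1.46 ± 0.06, adjusted p = 1.44e-08). In 6T-CEM, SBDS, which releases EIF6 from the large subunit, rose (log2 0.67 ± 0.08, adjusted p = 1.19e-05), as did NLE1 (log2 0.33). RRP9 (log2 -0.46) and the nucleolar GTPase GNL3 (log2 -0.35 ± 0.07, adjusted p = 0.00116) fell there. In J.gamma1, both sh-LDB1 libraries of each of these genes were above both sh-NC libraries. SBDS went from 39.17 and 37.42 to 57.29 and 64.55 CPM in J.gamma1, and GNL3 from 118.9 and 119 to 166.5 and 170.8 CPM. EFL1, which works with SBDS, and NVL fell in J.gamma1 (log2 -0.46 and -0.33). The change was higher in J.gamma1 for 51 of the 62 genes (82.3%) and lower for 1 (1.61%), against 12.0% and 12.4% of all genes tested.

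Of 39 genes of translation factors and other TOP transcripts, 2 rose and 9 fell in 6T-CEM (median -0.06), and 25 rose and 10 fell in J.gamma1 (median 0.23). These were 5.13% and 23.1% in 6T-CEM, against 15.1% and 16.2% of all genes tested. In J.gamma1 they were 64.1% and 25.6%, against 25.0% and 26.5%. EIF5A rose in J.gamma1 from 408.7 and 408.3 to 786.9 and 844.9 CPM (log2 1.00 ± 0.05, adjusted p = 4.02e-08). EIF3B also rose there (log2 0.84) and EIF4A2 fell (log2 -0.75). In 6T-CEM, EEF1D and EIF3D rose (log2 0.26 and 0.17) and EIF3J fell (log2 -0.33). In J.gamma1, both sh-LDB1 libraries of each of these genes were above both sh-NC libraries. HNRNPA1 fell in both lines (log2 -0.50 ± 0.05, adjusted p = 4.70e-06, and -0.72 ± 0.04, adjusted p = 1.65e-07). Of 78 mitochondrial ribosomal protein genes, which serve the separate ribosome of mitochondria, 2 (MRPS6, log2 0.57, and MRPL20, log2 0.19) rose and 19 (MRPL40, log2 -0.52, among them) fell in 6T-CEM. These were 2.56% and 24.4%, against 15.1% and 16.2% of all genes tested. In J.gamma1, 32 (41.0%) rose and 13 (16.7%) fell, against 25.0% and 26.5% of all genes tested. MRPL1 rose in J.gamma1 from 16.13 and 12.72 to 37.13 and 41.63 CPM (log2 1.45 ± 0.12, adjusted p = 6.11e-06), MRPL54 rose with it (log2 1.03), MRPL16 fell (log2 -0.57), and MRPS16 fell in both lines (log2 -0.45 ± 0.06, adjusted p = 3.78e-05, and -0.54 ± 0.06, adjusted p = 1.66e-05).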

How the data were processed

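RNA-seq counts of 8 libraries, 2 per group, were analysed. The authors sequenced 150 bp paired-end reads from TruSeq libraries, aligned them to hg38 with HISAT2 2.2.0, quantified genes with StringTie and deposited raw counts as whole numbers, 1 column for each library. The annotation release, the use of strand and the treatment of reads that match several genes are not given in the sources used here. For 13 of 85 members, pseudogenes held over 10% of the counts of parent and pseudogenes in at least 1 library, and counts of near-identical paralogs may be split.

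Counts were tested with edgeR 4.0.16 in R 4.3.3 (robust quasi-likelihood, TMM, filterByExpr, Benjamini-Hochberg adjustment over all genes tested, called at an adjusted p under 0.05). Rows with no matched symbol (8147, with 2.11% to 2.27% of the counts of a library) were kept. Each line was fitted alone, and the interaction and the difference between the sh-NC groups came from a fit to all 8 libraries. Coordinates and lengths came from GENCODE release 44. No label ties same-numbered replicates together, and their deviations correlated with r of -0.013 (6T-CEM) and -0.014 (J.gamma1) over 18552 genes and 0.318 and -0.261 over the 83 members. On simulated counts with 200 genes changed by a log2 of 1, the test recovered 199 in 6T-CEM (16059 genes) and 200 in J.gamma1 (17215 genes), with 4.33% and 6.54% of its calls false. It recovered 178 for the interaction and 196 for the sh-NC groups (18552 genes), with 4.30% and 4.85% false. The simulation gave all genes the same dispersion, drew libraries independently and changed only genes with higher counts. Most called members changed by less than a log2 of 1, so these shares do not carry over to their calls.

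The members, lists, tests and named genes were chosen with earlier results of these data known. Named were LDB1, paralogs and parents, RPL5, RPL10, RPL11, RPL22, the stalk genes, RPSA, RPS27A, the 5 called members with the largest change per comparison and direction, the 5 highest and lowest per length, and 2 called genes per direction from each other list; others (RPS9 and members called in both lines) were named after their values were seen. Alternatives were other scalings and filters, DESeq2 1.42.0, the replicate block, fits without 1 library, stricter thresholds, added pseudogene counts, a subtracted length and GC trend, and another gene length. Results for 3 genes are not reported here.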

Additional observations from a re-analysis of the deposited data

Results flagged for a closer look

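The change after LDB1 knockdown differed between 6T-CEM and J.gamma1 by the interaction term for 29 of the 83 members tested, 27 higher in J.gamma1 and 2 lower. Of all 18552 genes tested, 12.0% were higher and 12.4% lower (24.4% in either direction). The difference in log2 fold change (J.gamma1 minus 6T-CEM) was 0.67 for RPL22L1, 0.53 for RPL26L1, 0.40 for RPS27L, 0.37 for RPS27A, 0.32 for RPL37A, -1.03 for RPL39L and -0.23 for RPL3. RPL7L1, called in opposite directions in the lines, differed by 0.26 (adjusted p = 0.0071, edgeR). The call of RPS27L was lost in 6 of the 8 fits without 1 library, and that of RPL3 in 4. Groups of 2 libraries are too small to test a single library as standing apart.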

How the results depend on the processing

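Scaling left the direction of both medians in place. With library totals alone the 6T-CEM median of the members moved from -0.0434 to -0.0042, and that of all genes from 0.0027 to 0.0426. The J.gamma1 median was 0.0447 with the length and GC trend subtracted. Fits without 1 library gave medians of -0.0719 to -0.0211 (6T-CEM) and 0.0676 to 0.1564 (J.gamma1). They called 7 to 11 members (6T-CEM), 21 to 46 (J.gamma1), 12 to 35 (difference between lines) and 63 to 73 (sh-NC groups). Without a filter on low counts, J.gamma1 had 26 calls, with more genes tested. Shares of all genes called without 1 library, without a filter, with a stricter adjusted p or the replicate block are not given here. Without those shares, shifts in the number of members called cannot be read as specific to the members. With a log2 fold change beyond 1, the calls were 0, 1, 1 and 6, and with an adjusted p under 0.01 they were 7 in 6T-CEM, 21 in J.gamma1 and 10 for the difference. With the replicate block the number was 14 in 6T-CEM, 55 in J.gamma1 and 38 for the difference, but the numbers are names that no label ties together, with deviations correlated near 0 over all genes (r of -0.013 and -0.014) and with opposite signs over the members. Pseudogene rows raised the members' share of counts to 7.71% and 7.77% in 6T-CEM and to 6.94% and 7.56% in J.gamma1 (sh-NC, sh-LDB1). The differences between the subunit medians under alternatives, an addition chosen after seeing the data, were -0.0337 to -0.0226 (6T-CEM, -0.0237 with all libraries) and 0.0042 to 0.0356 (J.gamma1, 0.0234 with all libraries) without 1 library, and kept their direction. Values not called changed sign for RPL11 in 6T-CEM (0.0165 with the upper quartile, 0.0257 with library totals, -0.0789 to 0.0497 without 1 library), RPL22L1 in 6T-CEM (0.0217, 0.0316, and -0.0273 to 0.0123) and RPL10 in J.gamma1 (0.0384, 0.0184, 0.0045 with a CPM filter, and -0.0697 to 0.0525), and for the difference of RPL10 between lines (-0.0378 to 0.0884 without 1 library). Between the sh-NC groups RPL10 was -0.2289 with pseudogene counts added and RPL7 was 0.0018 with library totals alone. The cause of these shifts was not tested. With 2 libraries per group, small changes of abundant genes rest on few degrees of freedom.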
